A study of Mus musculus with 18 samples.

Results

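Transcripts of 10 genes of bone morphogenetic protein (BMP) signalling were followed in RNA sequencing libraries of mouse cells labelled as lung microvascular endothelial cells. They are the type II receptor gene Bmpr2, the type I receptor genes Bmpr1a and Acvr1, the signal carriers Smad1 and Smad5, the inhibitory Smad6, the target genes Id1, Id2 and Id3, and the ligand gene Gdf6. They were taken by gene symbol, and all 10 were found among the 15288 genes of the deposited table. The 18 libraries fall into 6 groups of 3, which cross siRNA against CYP1B1 (siCYP1B1) or scrambled siRNA with 16aOHE, E2 or vehicle. E2 is estradiol, and 16aOHE is the usual short name of 16-alpha-hydroxyestrone, a metabolite that differs from estradiol by a hydroxyl and a ketone on the same ring. Every culture received siRNA by lipid transfection. In the E2 and 16aOHE groups, 1 uM of the estrogen was present from 24 hours later, for 24 hours in 5% serum. For the vehicle groups no such times were recorded here. The design asked how the estrogens act on these cells with siRNA against CYP1B1 or with scrambled siRNA. CYP1B1 is a cytochrome P450 that metabolizes estradiol. The siRNA sequence, the strain, sex and age of the animals, and whether the 3 libraries of a group were separate cultures could not be learnt from the labels. The p-values therefore measure the spread between these libraries, which may be technical.

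BMP ligands bind a complex of type II and type I receptors at the cell surface. The type II receptor activates the type I receptor, which phosphorylates SMAD1, SMAD5 or SMAD9, and these enter the nucleus with SMAD4. Id genes, which encode inhibitors of basic helix-loop-helix transcription factors, are classical targets there, and SMAD6 is induced and feeds back on the pathway. Loss of function of BMPR2 is the best known inherited cause of pulmonary arterial hypertension.

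The promoters were searched for short binding words near the start. Promoter sequences from RefSeq on GRCm38.p6 (mm10) were matched for 8 of the 10 members, and those of Id1 and Gdf6 were not used here. The 250 bases before the start are shown for Bmpr1a and Id2, which hold GGCGCC, a GC-rich SMAD1/5 binding word, and for Smad6 and Id3, which do not. Capitals mark GGCGCC and the aryl hydrocarbon receptor core GCGTG, the motifs found, read on both strands.
Bmpr1a, chr14:34502547-34502796, minus strand: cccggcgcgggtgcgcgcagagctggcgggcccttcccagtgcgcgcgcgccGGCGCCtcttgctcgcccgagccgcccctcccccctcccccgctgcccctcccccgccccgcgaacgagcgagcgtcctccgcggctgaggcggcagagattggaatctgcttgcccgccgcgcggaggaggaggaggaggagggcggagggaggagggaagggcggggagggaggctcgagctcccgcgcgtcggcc
Id2, chr12:25096093-25096342, minus strand: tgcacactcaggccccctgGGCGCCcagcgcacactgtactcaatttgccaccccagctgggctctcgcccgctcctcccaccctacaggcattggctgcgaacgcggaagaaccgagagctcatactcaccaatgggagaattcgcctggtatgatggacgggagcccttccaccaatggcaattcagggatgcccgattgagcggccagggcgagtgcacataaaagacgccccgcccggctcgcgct
Smad6, chr9:64022060-64022309, minus strand: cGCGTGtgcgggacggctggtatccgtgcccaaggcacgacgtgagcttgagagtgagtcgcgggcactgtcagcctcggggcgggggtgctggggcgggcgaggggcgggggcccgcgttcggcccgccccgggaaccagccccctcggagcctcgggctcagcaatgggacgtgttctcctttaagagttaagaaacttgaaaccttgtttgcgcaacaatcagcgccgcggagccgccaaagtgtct
Id3, chr4:136143572-136143821, plus strand: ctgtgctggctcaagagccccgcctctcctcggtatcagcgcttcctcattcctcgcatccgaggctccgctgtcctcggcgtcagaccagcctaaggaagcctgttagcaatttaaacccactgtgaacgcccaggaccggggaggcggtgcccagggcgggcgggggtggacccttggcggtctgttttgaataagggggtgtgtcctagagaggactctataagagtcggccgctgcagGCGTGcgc

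GGCGCC lay in 3 of the 8 promoters, 231 bases before the start of Id2, 198 before that of Bmpr1a and 105 before that of Bmpr2. Among 27025 RefSeq promoters of the same length, 9.54% held it. GCGTG, whose full site is bound by the receptor that induces Cyp1b1, lay in 4 of the 8 (Acvr1, Smad1, Smad6 and Id3), against 28.2% of all promoters. The SMAD binding element CAGACA (17.1% of all promoters), the palindromic SMAD box GTCTAGAC (0.174%), the full estrogen response element GGTCANNNTGACC (0.0629%) and the E-box CACGTG (6.05%) were in none of the 8 windows. No matches overlapped. The 8 windows were 60% (Smad5) to 85.6% (Acvr1) G or C, and the shares of all promoters were not matched for this. The RefSeq genes of Bmpr1a and Smad6 reach to 34503336 and 64022085. The window of Bmpr1a thus lies inside its RefSeq gene, and that of Smad6 in part. A match describes letters and not binding.

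Values are CPM, read counts scaled so that each library has the same total over the listed genes, tested as log2(CPM + 1). Log2 differences are on that scale and understate the change of low genes. A gene is called higher or lower where limma's adjusted p (Benjamini-Hochberg over the 11835 genes that averaged 1 CPM or more) is under 0.05. All 10 members passed that filter in their mean over all libraries. At the estimated depth 1 CPM stood for 14.1 to 38.5 reads, and the member with the fewest reads, Id2, had 118 to 339 reads in a library, so that counting error is largest there. The targeted gene fell by a small amount. Cyp1b1 averaged 81.5 ± 0.724 CPM with siCYP1B1 and 92.2 ± 3.58 CPM with scrambled siRNA in vehicle, 103 ± 1.95 against 118 ± 1.06 CPM in E2, and 90.1 ± 1.39 against 106 ± 1.25 CPM in 16aOHE (SD, n = 3 each). The cell type label was checked on 17 endothelial markers, of which 11 were in the table and 5 had a mean of at least 1 CPM. Pecam1, Vwf and Sox18 averaged 0.0481, 0.0305 and 0.0255 CPM, at or near 0, whereas Flt1 averaged 70.0 CPM and Cd34 107 CPM. The mesothelial gene Msln averaged 1521 CPM and the collagen gene Col1a1 1946 CPM. Of 9 measured mesothelial and epithelial markers 7 had a mean of at least 1 CPM, whereas Krt8 and Epcam averaged 0.522 and 0.343 CPM. Of 9 measured fibroblast and pericyte markers 6 reached that mean, whereas Lum, Rgs5 and Cspg4 averaged 0.0427, 0.0610 and 0.217 CPM. The series title names smooth muscle, and 5 of its 9 measured markers had a mean of at least 1 CPM. Acta2 averaged 20.5 CPM and Smtn 90.1 CPM, whereas Myh11, Lmod1, Cnn1 and Des averaged 0.0764, 0.0667, 0.106 and 0.727 CPM. In bulk RNA, fewer cells of a type and less RNA per cell cannot be told apart.

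Levels between members were compared per kilobase of the longest transcript, as means over all libraries. Id1 was highest with 57.5 CPM per kb, followed by Id3 (35.9) and Bmpr1a (29.3). Smad5 (15.3), Acvr1 (13.05), Smad1 (12.7) and Smad6 (11.6 CPM per kb) lay in the middle, and Bmpr2 (8.47), Id2 (6.21) and Gdf6 (5.16 CPM per kb) were lowest. The place of Bmpr2, at 109 CPM, rests on a transcript of 12899 bases, and shorter transcripts were not tried. The other receptors of BMP ligands set these levels in context. Acvr2a had 5.24 CPM per kb and Acvr2b 0.595, while Acvrl1, the type I receptor of endothelial BMP9 and BMP10 signalling, had 0.0123 and Bmpr1b 0.00725 CPM per kb. Acvrl1 averaged 0.0449 CPM, Bmpr1b 0.0388 CPM, the antagonist gene Nog 0.0540 CPM and Id4 0.526 CPM, and none of these was tested.

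**Figure D1:**
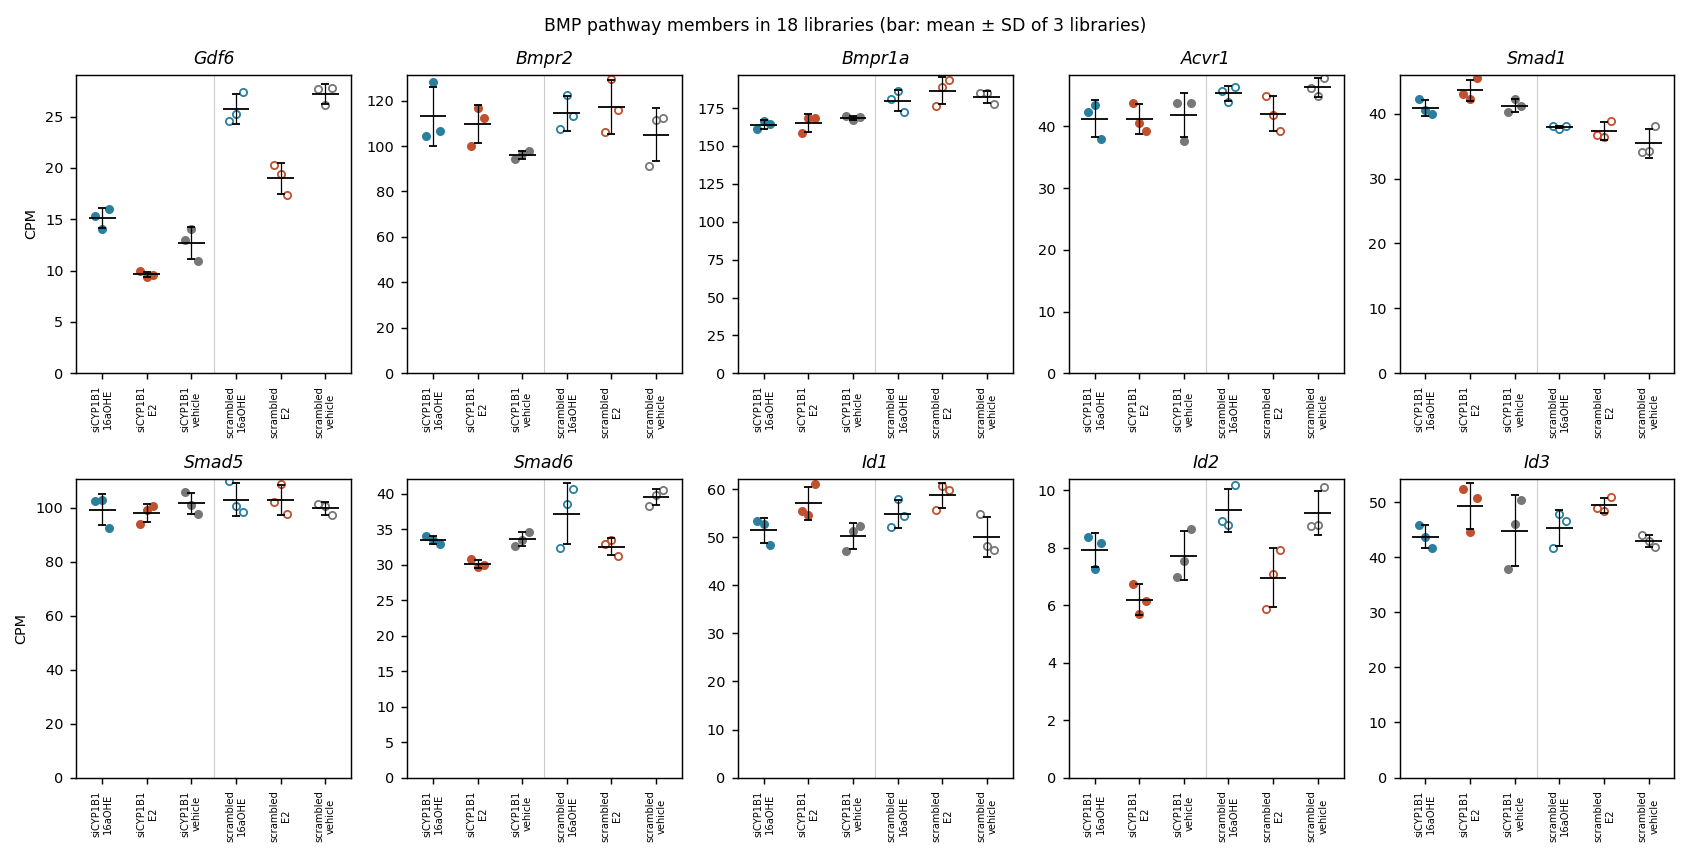
CPM of the 10 members in each of the 18 libraries, 1 panel per gene, with the axis starting at 0. Points are libraries, filled for siCYP1B1 and open for scrambled siRNA, and bars are the mean and SD of 3 libraries. Gdf6, Bmpr1a and Smad1 each separate all siCYP1B1 from all scrambled libraries. In proportion to level, the steps between groups are largest for Gdf6.

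The ligand gene Gdf6 differed most among the members. GDF6 is a BMP family growth factor known from joint and skeletal patterning, and its gene lies on chromosome 4 (9844372 to 9862345, plus strand, mm10). In vehicle, Gdf6 was at 12.96, 14.04 and 10.98 CPM in the siCYP1B1 libraries, against 27.7, 26.1 and 27.8 CPM in the scrambled libraries. In E2 it was at 9.92, 9.41 and 9.56 CPM with siCYP1B1, against 20.3, 19.4 and 17.3 CPM with scrambled siRNA. In 16aOHE it was at 15.3, 14.1 and 16.0 CPM with siCYP1B1, against 24.6, 25.3 and 27.4 CPM with scrambled siRNA. No siCYP1B1 library reached the lowest scrambled library of any arm. Gdf6 thus fell by 53.4% in vehicle (log2 difference -1.05, SE 0.0816, adjusted p = 1.27e-08), by 49.3% in E2 (-0.91, adjusted p = 7e-08) and by 41.2% in 16aOHE (-0.73, adjusted p = 2.07e-06). Its fall was known when the members were chosen and is not independent evidence about them.

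E2 lowered Gdf6 and 16aOHE did not pass the threshold in either direction. E2 against vehicle gave a fall by 30.1% with scrambled siRNA (-0.50, adjusted p = 0.000101) and by 24.0% with siCYP1B1 (-0.36, adjusted p = 0.00256), with no overlap between the groups. For 16aOHE against vehicle the differences were 0.24 with siCYP1B1 (95% interval 0.07 to 0.41, adjusted p = 0.086) and -0.08 with scrambled siRNA (-0.25 to 0.09, adjusted p = 0.738). Without siCYP1B1 vehicle library 2 the difference with siCYP1B1 was 0.32 with an adjusted p of 0.0484. The interaction of 16aOHE with the siRNA was 0.32 (0.08 to 0.56) with an adjusted p of 0.893. Ranked by mean, Gdf6 was lowest with siCYP1B1 and E2 (9.63 ± 0.264 CPM), then siCYP1B1 and vehicle (12.7 ± 1.55), siCYP1B1 and 16aOHE (15.1 ± 1.00), scrambled siRNA and E2 (19.0 ± 1.497), scrambled siRNA and 16aOHE (25.7 ± 1.45) and scrambled siRNA and vehicle (27.2 ± 0.961 CPM; SD, n = 3 each). Of the neighbours in that order, the last pair overlapped and the others did not.

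Among the receptors, Bmpr1a fell slightly with siCYP1B1 in each arm, Acvr1 fell in the average over the arms, and Bmpr2 showed no called difference with the siRNA. Bmpr1a, on chromosome 14 (34411068 to 34502546, minus strand), encodes ALK3, a type I receptor of BMP2 and BMP4. Its 3 libraries in vehicle were at 169.6, 167 and 169 CPM with siCYP1B1, against 185, 185 and 178 CPM with scrambled siRNA. In E2 they were at 158, 169 and 168 CPM with siCYP1B1, against 176, 189 and 194 CPM with scrambled siRNA. In 16aOHE they were at 161, 167 and 164 CPM with siCYP1B1, against 181, 186 and 173 CPM with scrambled siRNA. Every siCYP1B1 library was below every scrambled library, within and across the 3 arms. Bmpr1a fell by 7.59% in vehicle (log2 difference -0.11, SE 0.0385, adjusted p = 0.0415), by 11.4% in E2 (-0.17, adjusted p = 0.00277) and by 8.76% in 16aOHE (-0.13, adjusted p = 0.0202). The mean of the 3 arms was -0.14 (95% interval -0.19 to -0.09, adjusted p = 3.33e-05). The call in vehicle ended without each of 5 of its 6 libraries (all but scrambled vehicle 3), with adjusted p-values of 0.0747 to 0.124, and it was 0.0722 without the trend and 0.0526 with quantile normalization. The call in 16aOHE ended without scrambled 16aOHE 1 (0.0614), scrambled 16aOHE 2 (0.103) or siCYP1B1 16aOHE 1 (adjusted p = 0.0605), and with only the 2 groups fitted (0.0558).

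Acvr1, on chromosome 2 (58446438 to 58566828, minus strand), encodes ALK2, the type I receptor that binds BMP6 and BMP7. It averaged 41.8 ± 3.54 CPM with siCYP1B1 and 46.3 ± 1.505 CPM with scrambled siRNA in vehicle, 41.2 ± 2.37 against 42.0 ± 2.85 CPM in E2, and 41.2 ± 2.94 against 45.3 ± 1.25 CPM in 16aOHE (SD, n = 3 each). The groups overlapped in E2 and not in the other arms, and no single arm passed the threshold. The average over the arms was -0.10 (-0.18 to -0.02, adjusted p = 0.0313). It had an adjusted p of 0.0537 to 0.0798 without any 1 of 7 libraries: scrambled 16aOHE 3, scrambled E2 1, scrambled vehicle 3, siCYP1B1 16aOHE 3, siCYP1B1 E2 2, siCYP1B1 E2 3 and siCYP1B1 vehicle 2. Bmpr2, on chromosome 1 (59764279 to 59878081, plus strand), was at 100.2, 117 and 112 CPM with E2 and at 94.3, 96.4 and 97.6 CPM with vehicle in siCYP1B1 cells. With scrambled siRNA it was at 106, 129.5 and 116 CPM with E2, against 91.4, 111 and 112 CPM with vehicle. The E2 libraries were all above vehicle with siCYP1B1 and overlapped them with scrambled siRNA. Neither single comparison was called, and their average was 0.17 (0.05 to 0.30, adjusted p = 0.0224). That adjusted p was 0.073 without scrambled E2 2, 0.0774 without scrambled vehicle 1, and 0.0633 without siCYP1B1 E2 2. It was 0.0846 with median-of-ratios size factors, 0.0603 with quantile normalization and 0.0535 without the trend. For 16aOHE the averaged Bmpr2 difference was 0.18 (0.05 to 0.30, adjusted p = 0.0588). Bmpr2 with siCYP1B1 against scrambled siRNA was -0.12 in vehicle (-0.29 to 0.05), -0.09 in E2 (-0.27 to 0.08) and -0.02 in 16aOHE (-0.19 to 0.15).

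**Figure D2:**
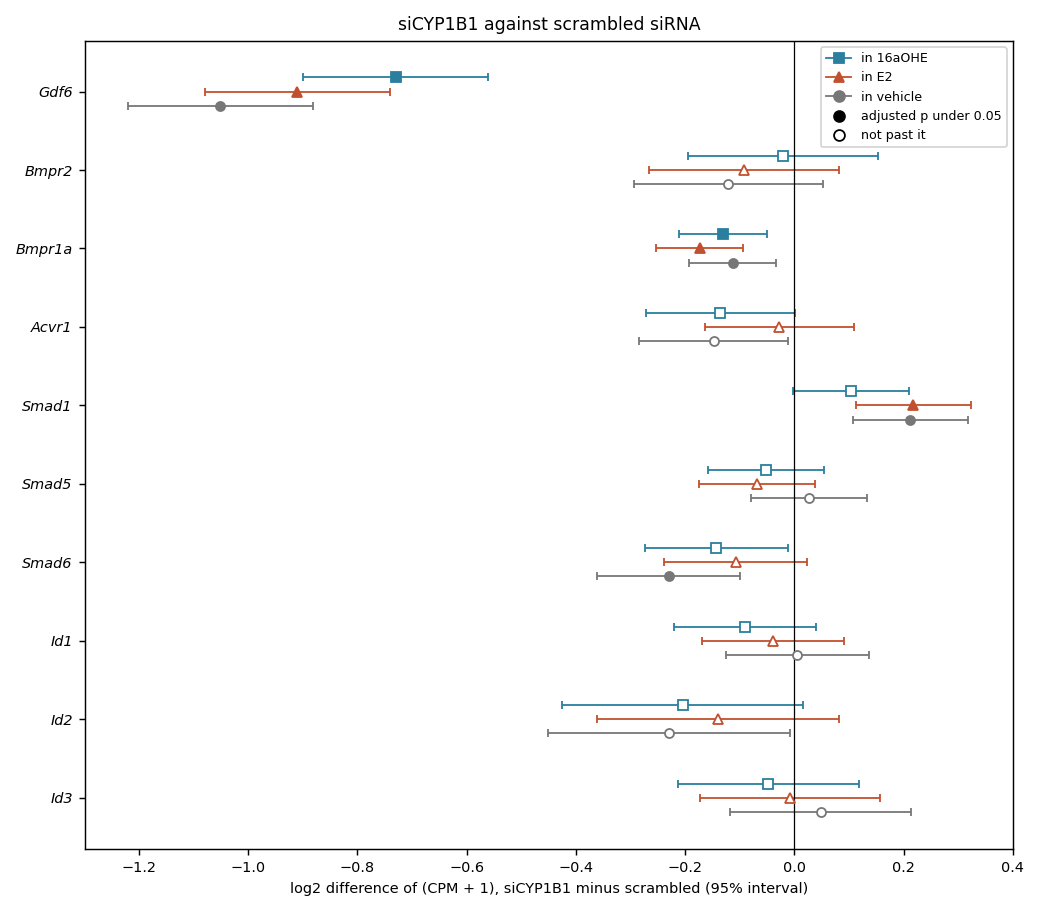
Log2 differences of (CPM + 1), siCYP1B1 minus scrambled siRNA, for each member in 16aOHE, E2 and vehicle, with 95% intervals; filled symbols have an adjusted p under 0.05. Gdf6 lies between -1.05 and -0.73, Bmpr1a is filled in all 3 arms, and Smad1 lies to the right of 0.

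The SMAD genes moved apart: Smad1 rose with siCYP1B1, Smad6 fell with siCYP1B1 and with E2, and Smad5 was called in no comparison. SMAD1 and SMAD5 carry the BMP signal and can replace each other in many cells, whereas SMAD6 blocks it. Smad1 (chromosome 8, 79338398 to 79399468, minus strand) was at 40.2, 42.2 and 41.1 CPM with siCYP1B1, against 34.1, 34.3 and 38.0 CPM with scrambled siRNA in vehicle. In E2 it was at 43.0, 42.3 and 45.4 CPM with siCYP1B1, against 36.7, 36.4 and 38.9 CPM with scrambled siRNA. In 16aOHE it was at 42.2, 40.5 and 39.9 CPM with siCYP1B1, against 38.1, 37.7 and 38.1 CPM with scrambled siRNA. Every siCYP1B1 library was above every scrambled library, within and across the arms. The rise was 16.2% in vehicle (log2 difference 0.21, SE 0.0508, adjusted p = 0.00516) and 16.7% in E2 (0.22, adjusted p = 0.00409), and 16aOHE gave 0.10 (95% interval -0.00 to 0.21, adjusted p = 0.166). The average over the arms was 0.18 (adjusted p = 4.76e-05).

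Smad6 (chromosome 9, 63953076 to 64022059, minus strand) was at 32.6, 33.4 and 34.6 CPM with siCYP1B1 and vehicle, against 38.3, 39.8 and 40.5 CPM with scrambled siRNA and vehicle. With E2 it was at 30.8, 29.6 and 29.98 CPM in siCYP1B1 cells, against 32.9, 33.5 and 31.3 CPM in scrambled cells. With 16aOHE it was at 34.0, 33.5 and 32.8 CPM in siCYP1B1 cells, against 32.4, 38.5 and 40.7 CPM in scrambled cells. The vehicle libraries of scrambled cells stood above all siCYP1B1 libraries and above both E2 groups. siCYP1B1 lowered Smad6 by 15.1% in vehicle (log2 difference -0.23, SE 0.063, adjusted p = 0.013) and over the arms (-0.16, adjusted p = 0.00121). E2 lowered it by 17.7% in scrambled cells (-0.27, adjusted p = 0.00244) and over both siRNAs (-0.21, adjusted p = 0.000589), and the fall in siCYP1B1 cells was -0.15 (95% interval -0.28 to -0.02, adjusted p = 0.0814). The siCYP1B1 call in vehicle had an adjusted p of 0.054 without scrambled vehicle 3. The siCYP1B1 difference in 16aOHE was -0.14 (adjusted p = 0.121), and -0.24 (adjusted p = 0.00644) without scrambled 16aOHE 1, the lowest library of its group. Without that library the E2 difference in siCYP1B1 cells had an adjusted p of 0.026. Smad5 (chromosome 13, 56703010 to 56742378, plus strand) had group means of 98.1 to 103 CPM. Its differences with siCYP1B1 were 0.03 in vehicle (-0.08 to 0.13), -0.07 in E2 (-0.17 to 0.04) and -0.05 in 16aOHE (-0.16 to 0.05).

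The Id genes did not move as a block. E2 raised Id1 in both siRNAs and Id3 in the average over them, and lowered Id2. Id1 (chromosome 2, 152736251 to 152737410, plus strand) was at 55.5, 54.7 and 61.0 CPM with E2 and at 47.1, 51.2 and 52.3 CPM with vehicle in siCYP1B1 cells. In scrambled cells it was at 55.6, 60.6 and 59.8 CPM with E2, against 54.8, 48.1 and 47.3 CPM with vehicle. All E2 libraries were above the vehicle libraries of the same siRNA. The rise was 13.7% with siCYP1B1 (log2 difference 0.18, SE 0.0625, adjusted p = 0.0352), 17.2% with scrambled siRNA (0.23, adjusted p = 0.00907) and 0.20 on the log2 scale over both (adjusted p = 0.000783). With siCYP1B1 the adjusted p was 0.175 without siCYP1B1 E2 3, 0.158 without siCYP1B1 vehicle 1, and 0.0563 without siCYP1B1 vehicle 2. It was 0.0896 with median-of-ratios size factors, 0.114 with quantile normalization and 0.0567 without the trend. With scrambled siRNA it was 0.0546 without scrambled vehicle 3.

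Id3 (chromosome 4, 136143822 to 136145392, plus strand) was at 52.4, 44.5 and 50.8 CPM with E2, against 37.8, 46.1 and 50.4 CPM with vehicle in siCYP1B1 cells. With scrambled siRNA Id3 was at 48.9, 48.4 and 50.9 CPM with E2, against 44.1, 42.9 and 41.9 CPM with vehicle. The groups overlapped with siCYP1B1 and stood apart with scrambled siRNA. The averaged difference was 0.17 (95% interval 0.05 to 0.29, adjusted p = 0.0184). It had an adjusted p of 0.0532 without siCYP1B1 E2 1, 0.0635 without siCYP1B1 vehicle 1, 0.0597 with median-of-ratios size factors and 0.0836 with quantile normalization. The difference with scrambled siRNA (0.20, adjusted p = 0.0656) had an adjusted p of 0.0224 without siCYP1B1 vehicle 1 and 0.0425 without siCYP1B1 vehicle 3, and that with siCYP1B1 (0.14, adjusted p = 0.202) had 0.0442 without siCYP1B1 vehicle 3.

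Id2 (chromosome 12, 25093799 to 25096092, minus strand) went the other way from Id1 with E2. It was at 6.75, 5.70 and 6.15 CPM with E2, against 6.98, 7.56 and 8.65 CPM with vehicle in siCYP1B1 cells. In scrambled cells it was at 5.87, 7.09 and 7.92 CPM with E2, against 8.77, 8.78 and 10.1 CPM with vehicle. Every E2 library was below every vehicle library of the same siRNA. Id2 fell by 24.5% with scrambled siRNA (log2 difference -0.37, SE 0.106, adjusted p = 0.0125) and by 0.32 on the log2 scale over both siRNAs (adjusted p = 0.00156), and the value with siCYP1B1 was -0.28 (95% interval -0.50 to -0.05, adjusted p = 0.0584). The scrambled call had an adjusted p of 0.0853 without scrambled E2 1 and 0.0676 without scrambled vehicle 3. The siCYP1B1 value passed without scrambled E2 1 (0.0432), scrambled E2 3 (0.0487) or siCYP1B1 vehicle 1 (0.0438). With siCYP1B1 against scrambled siRNA, Id2 was lower in the average over the arms (-0.19, -0.32 to -0.06, adjusted p = 0.015), and single arms gave -0.23 in vehicle, -0.14 in E2 and -0.20 in 16aOHE, none called. Id1 and Id3 had averaged siCYP1B1 differences of -0.04 (-0.12 to 0.03) and -0.00 (-0.10 to 0.09).

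**Figure D3:**
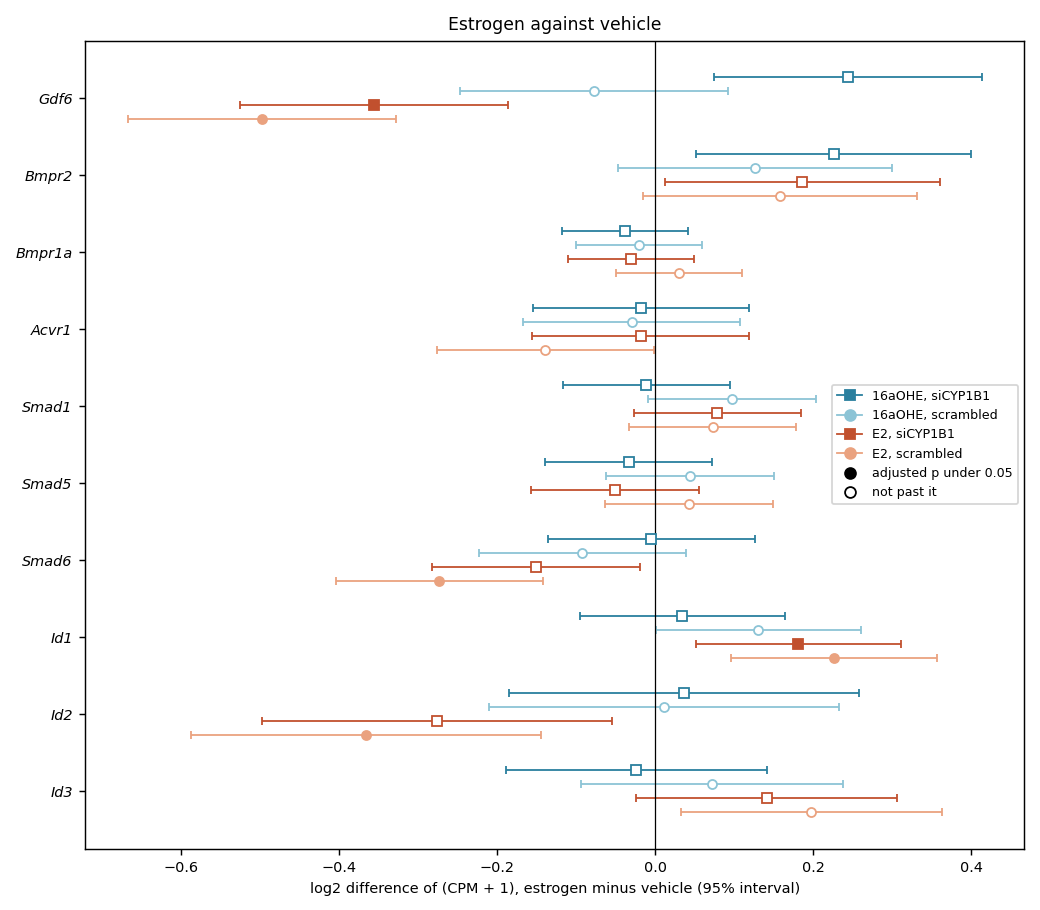
Log2 differences of (CPM + 1) against vehicle for 16aOHE and E2 in siCYP1B1 and scrambled cells, with 95% intervals; filled symbols have an adjusted p under 0.05. With E2, Gdf6, Smad6 and Id2 lie left of 0 and Id1 and Id3 right of it, and no 16aOHE symbol is filled.

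Counted over the members, siCYP1B1 in vehicle gave 1 gene higher (Smad1) and 3 lower (Gdf6, Bmpr1a and Smad6) of 10. Of all tested genes 11.5% were called higher and 9.12% lower there, 20.6% in either direction. In E2 it was 1 higher and 2 lower of 10, against 11.4% and 9.80% of all genes (21.2% in either direction). In 16aOHE it was 0 higher and 2 lower, against 10.4% and 9.31% (19.7% in either direction). Over the 3 arms 1 was higher and 5 lower of 10, where 26.5% of all genes were called higher and 18.2% lower, 44.7% together. The groups did not overlap for 6 of 10 members in vehicle, 4 in E2 and 5 in 16aOHE, and for 37.0%, 36.6% and 33.4% of all genes. The median log2 difference of the members over the arms was -0.09, that of all tested genes 0.03. Of all called genes, 55.7% were higher in vehicle and 53.7% in E2, but 41.4% and 41.1% with median-of-ratios size factors. The summed levels of the marker lists moved with siCYP1B1 too. In vehicle the 11 endothelial markers in the table summed to 187 to 188 CPM with siCYP1B1 and 258 to 298 CPM with scrambled siRNA, the 9 fibroblast and pericyte markers to 5233 to 5531 against 6562 to 6922 CPM, the 9 mesothelial and epithelial markers to 2948 to 3103 against 3819 to 3894 CPM, and the 9 smooth muscle markers to 113 to 122 against 136 to 141 CPM. The 4 leukocyte markers summed to 34.0 to 36.1 against 34.1 to 37.9 CPM. Cd34 and Flt1, with means of 107 and 70.0 CPM over all libraries, made up most of the endothelial sum. Of 5 tested endothelial markers 3 were called lower and 0 higher with siCYP1B1 in vehicle. The part of cell composition in the members' differences was not tested.

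With E2 in siCYP1B1 cells 1 member was called higher and 1 lower of 10, where 16.7% of all genes were called higher and 10.8% lower (27.5% in either direction). In scrambled cells it was 1 higher and 3 lower of 10, against 18.6% and 11.4% (30% in either direction). Over both siRNAs 3 were higher (Bmpr2, Id1 and Id3) and 3 lower (Gdf6, Smad6 and Id2) of 10, against 27.9% and 16.3% of all genes (44.2% in either direction). The groups did not overlap for 6 of 10 members with siCYP1B1 and 5 with scrambled siRNA, and for 43.7% and 41.1% of all genes. Without scrambled vehicle 3 the count in scrambled cells was 2, and without siCYP1B1 E2 3 or siCYP1B1 vehicle 2 that in siCYP1B1 cells was 1. Of all called genes, 62.0% were higher with scrambled siRNA, 60.6% with siCYP1B1 and 63.1% over both, and 46.9%, 45.8% and 48.6% were with median-of-ratios size factors. The fibroblast and pericyte markers summed to 4272 to 4785 CPM with E2 and 6562 to 6922 CPM with vehicle in scrambled cells, the mesothelial and epithelial ones to 2937 to 3117 against 3819 to 3894 CPM, the endothelial ones to 211 to 222 against 258 to 298 CPM and the smooth muscle ones to 105 to 123 against 136 to 141 CPM. The leukocyte ones summed to 31.6 to 33.8 against 34.1 to 37.9 CPM. In scrambled cells E2 gave 4 of 6 tested fibroblast and pericyte markers called lower and 1 higher. It gave 6 of 7 mesothelial and epithelial, 3 of 5 endothelial and 2 of 5 smooth muscle markers lower, with 0 higher in each. The part of these lists in the members' results was not tested either. With 16aOHE limma called 0 of 10 members in any of these comparisons. Of all genes 2.53% were called higher and 2.86% lower with siCYP1B1 (5.40% in either direction), 1.76% and 2.08% with scrambled siRNA (3.84%), and 5.33% and 5.97% over both (11.3%). At an unadjusted p under 0.05 the members' counts were 2 with siCYP1B1, 1 with scrambled siRNA and 1 over both, beside 19.1%, 14.9% and 24% of all genes. The 16aOHE and vehicle groups did not overlap for 3 members with siCYP1B1 (22.4% of all genes) and 0 with scrambled siRNA (21.1%). Bmpr2 passed over both siRNAs without any 1 of 6 libraries (scrambled 16aOHE 1, scrambled E2 1, scrambled E2 2, scrambled vehicle 3, siCYP1B1 16aOHE 1 and siCYP1B1 E2 1), with adjusted p-values of 0.0296 to 0.0499.

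Since both estrogens were given at the same dose and time, they were compared directly. 16aOHE left Gdf6 and Id2 higher than E2 did with either siRNA, and Smad6 with scrambled siRNA. Gdf6 was higher by 57.1% with 16aOHE in siCYP1B1 cells (log2 difference 0.60, SE 0.0816, adjusted p = 2.54e-05) and by 35.4% in scrambled cells (0.42, adjusted p = 0.00106). Id2 was at 8.39, 7.26 and 8.16 CPM with 16aOHE in siCYP1B1 cells and at 8.92, 8.81 and 10.2 CPM in scrambled cells, above every E2 library of the same siRNA. It was higher than with E2 by 28.0% in siCYP1B1 cells (0.31, adjusted p = 0.045) and by 33.6% in scrambled cells (0.38, adjusted p = 0.0164). Smad6 was higher by 14.3% in scrambled cells (0.18, adjusted p = 0.0497), though the groups overlapped there. Its value in siCYP1B1 cells was 0.15 (adjusted p = 0.113), without overlap. With siCYP1B1 2 of 10 members were thus called higher and 0 lower, where 6.59% of all genes were called higher and 11.8% lower (18.3% in either direction). In scrambled cells it was 3 higher and 0 lower, against 6.78% and 11.6% (18.4% in either direction). The groups did not overlap for 5 of 10 members with siCYP1B1 and 3 with scrambled siRNA, and for 34.0% of all genes in both. Of all called genes 36.8% and 35.9% were higher with 16aOHE, and 54.5% and 59.3% with median-of-ratios size factors. The summed levels of some marker lists also differed. The mesothelial and epithelial markers summed to 2767 to 2912 CPM with 16aOHE and 2411 to 2482 CPM with E2 in siCYP1B1 cells, and to 3441 to 3677 against 2937 to 3117 CPM in scrambled cells, with 5 of 7 tested genes called higher and 0 lower in each. The fibroblast and pericyte markers summed to 4602 to 4799 against 3455 to 3576 CPM in siCYP1B1 cells and to 5800 to 6189 against 4272 to 4785 CPM in scrambled cells, with 4 of 6 called higher. The endothelial markers summed to 160 to 164 against 134 to 141 CPM in siCYP1B1 cells and 234 to 239 against 211 to 222 CPM in scrambled cells. The smooth muscle markers summed to 99.8 to 109 CPM with 16aOHE and 102 to 108 CPM with E2 in siCYP1B1 cells, and to 118 to 133 against 105 to 123 CPM in scrambled cells. The leukocyte markers summed to 33.2 to 36.5 CPM with 16aOHE and 32.3 to 34.7 CPM with E2 in siCYP1B1 cells, and to 32.0 to 34.4 against 31.6 to 33.8 CPM in scrambled cells. The part of these lists in the members' differences was not tested.

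Of these calls, those of Gdf6 held without any 1 library. Smad6 had an adjusted p of 0.0524 to 0.256 without any 1 of 16 libraries, all but scrambled 16aOHE 1 and siCYP1B1 16aOHE 1. It had 0.0564 without the trend, 0.0644 without the filter and 0.13 with only the 2 groups fitted. In scrambled cells Id2 had 0.0814 without scrambled 16aOHE 3 and 0.0972 without scrambled E2 1. In siCYP1B1 cells it had 0.0521 to 0.157 without any 1 of 7 libraries (scrambled 16aOHE 2, scrambled vehicle 2, siCYP1B1 16aOHE 1, siCYP1B1 16aOHE 3, siCYP1B1 E2 2, siCYP1B1 E2 3 and siCYP1B1 vehicle 2), 0.0746 without the filter and 0.0728 with only the 2 groups fitted. Among the members without a call, Id1 was -0.15 with siCYP1B1 (95% interval -0.28 to -0.02, adjusted p = 0.108), Id3 -0.16 (-0.33 to 0.00) and Bmpr2 0.04 (-0.13 to 0.21). The interactions of E2 and of 16aOHE with the siRNA were called for 0 of 10 members and 0% of all genes by limma. At an unadjusted p under 0.05 they held 0 and 1 of the members (Gdf6 with 16aOHE) and 470 and 596 of all genes. An estrogen difference called with one siRNA and not the other is therefore not shown to differ between them.

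The remaining genes of the pathway were read from 5 lists of 82 genes, of which 72 were in the table and 58 were tested. Single calls of list genes that are not members were not followed under other settings or without single libraries. The shares of all tested genes called were 26.5% higher and 18.2% lower with siCYP1B1 over the arms (44.7% in either direction) and 27.9% higher and 16.3% lower with E2 over both siRNAs (44.2%). Among 6 tested ligands 2 were lower with siCYP1B1 over the arms, Gdf6 and Bmp4. Bmp4, a main ligand of BMPR1A, was at 11.7 CPM with siCYP1B1 and 14.9 CPM with scrambled siRNA in vehicle (log2 difference -0.32, adjusted p = 0.0412). Of 11 tested receptors and co-receptors, 3 were higher and 2 lower with siCYP1B1 over the arms, and 3 higher and 2 lower with E2 over both siRNAs, shares near those of all genes. Tgfbr3, the co-receptor betaglycan, rose most, to 103 CPM with E2 against 60.6 CPM with vehicle in scrambled cells (0.75, adjusted p = 9.9e-10), and 16aOHE raised it to 90.9 CPM (0.58, adjusted p = 2.28e-07). Eng, the co-receptor endoglin, fell with E2 to 6.72 CPM against 8.90 CPM in siCYP1B1 cells (-0.35, adjusted p = 0.0123) and to 6.66 CPM against 8.71 CPM in scrambled cells (-0.35, adjusted p = 0.0116). The activin receptor gene Acvr1b rose with E2 in scrambled cells (3.11 against 2.02 CPM, 0.45, adjusted p = 0.0189), and the co-receptor gene Rgmb rose with siCYP1B1 in E2 (37.0 against 32.3 CPM, 0.19, adjusted p = 0.0137).

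Of 8 tested SMAD genes, 1 was higher and 3 lower with siCYP1B1 over the arms, and 1 higher and 1 lower with E2 over both siRNAs, against 44.7% and 44.2% of all genes called. Smad9, the third BMP signal carrier, rose with E2 to 2.53 CPM against 1.66 CPM in siCYP1B1 cells (log2 difference 0.40, adjusted p = 0.049) and to 3.27 CPM against 1.67 CPM in scrambled cells (0.67, adjusted p = 0.00169). Smad7, the other inhibitory SMAD, fell with siCYP1B1 to 18.5 CPM against 21.8 CPM in vehicle (-0.22, adjusted p = 0.0259), and Smad3, which carries TGF-beta signals, to 152 against 167 CPM in E2 (-0.14, adjusted p = 0.0221). Of 19 tested inhibitors and modulators, the longest list, 3 were higher and 11 lower with siCYP1B1 over the arms, where 26.5% of all genes were called higher and 18.2% lower. Their median was -0.17 against 0.03 for all genes. Fst, which encodes the ligand trap follistatin, fell with siCYP1B1 to 38.0 CPM against 50.4 CPM in vehicle (-0.40, adjusted p = 0.00048) and with E2 to 35.2 CPM against 50.4 CPM in scrambled cells (-0.51, adjusted p = 2.26e-05). Bmper, a secreted BMP binding protein, fell with siCYP1B1 to 66.1 CPM against 89.4 CPM in vehicle (-0.43, adjusted p = 3.75e-06), and Fstl1, a follistatin-like secreted protein, to 380.1 CPM against 524 CPM (-0.46, adjusted p = 3.94e-05). Sostdc1, a BMP antagonist gene, fell with E2 to 1.56 CPM against 2.74 CPM in scrambled cells (-0.55, adjusted p = 0.0152).

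Among 17 tested target genes, which include Id1, Id2, Id3 and Smad6, 4 were higher and 5 lower with siCYP1B1 over the arms, and 5 higher and 2 lower with E2 over both siRNAs. Dlx2, a homeobox gene, fell with siCYP1B1 in vehicle to 9.52 CPM against 11.8 CPM (log2 difference -0.29, adjusted p = 0.00646). Among scrambled cells Dlx2 rose to 15.3 CPM with E2 (0.35, adjusted p = 0.000838) and to 16.4 CPM with 16aOHE (0.44, adjusted p = 0.000578). Msx1, another homeobox gene, rose with E2 to 1.64 CPM against 0.672 CPM in scrambled cells (0.64, adjusted p = 0.00586). Gata2 rose with E2 in siCYP1B1 cells to 18.3 CPM against 13.6 CPM (0.40, adjusted p = 0.00119), and Apln, the gene of the peptide ligand apelin, rose with siCYP1B1 in 16aOHE to 3.77 CPM against 2.56 CPM (0.42, adjusted p = 0.0396). Over all 58 tested genes of the lists 11 were higher and 21 lower with siCYP1B1 over the arms, and 15 higher and 9 lower with E2 over both siRNAs. These are 32 and 24 genes, beside 44.7% and 44.2% of all tested genes. They include the members. Among the 48 tested list genes that are not members, 10 were higher and 16 lower with siCYP1B1 over the arms. With E2 over both siRNAs 12 of these 48 were higher and 6 lower.

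**Figure D4:**
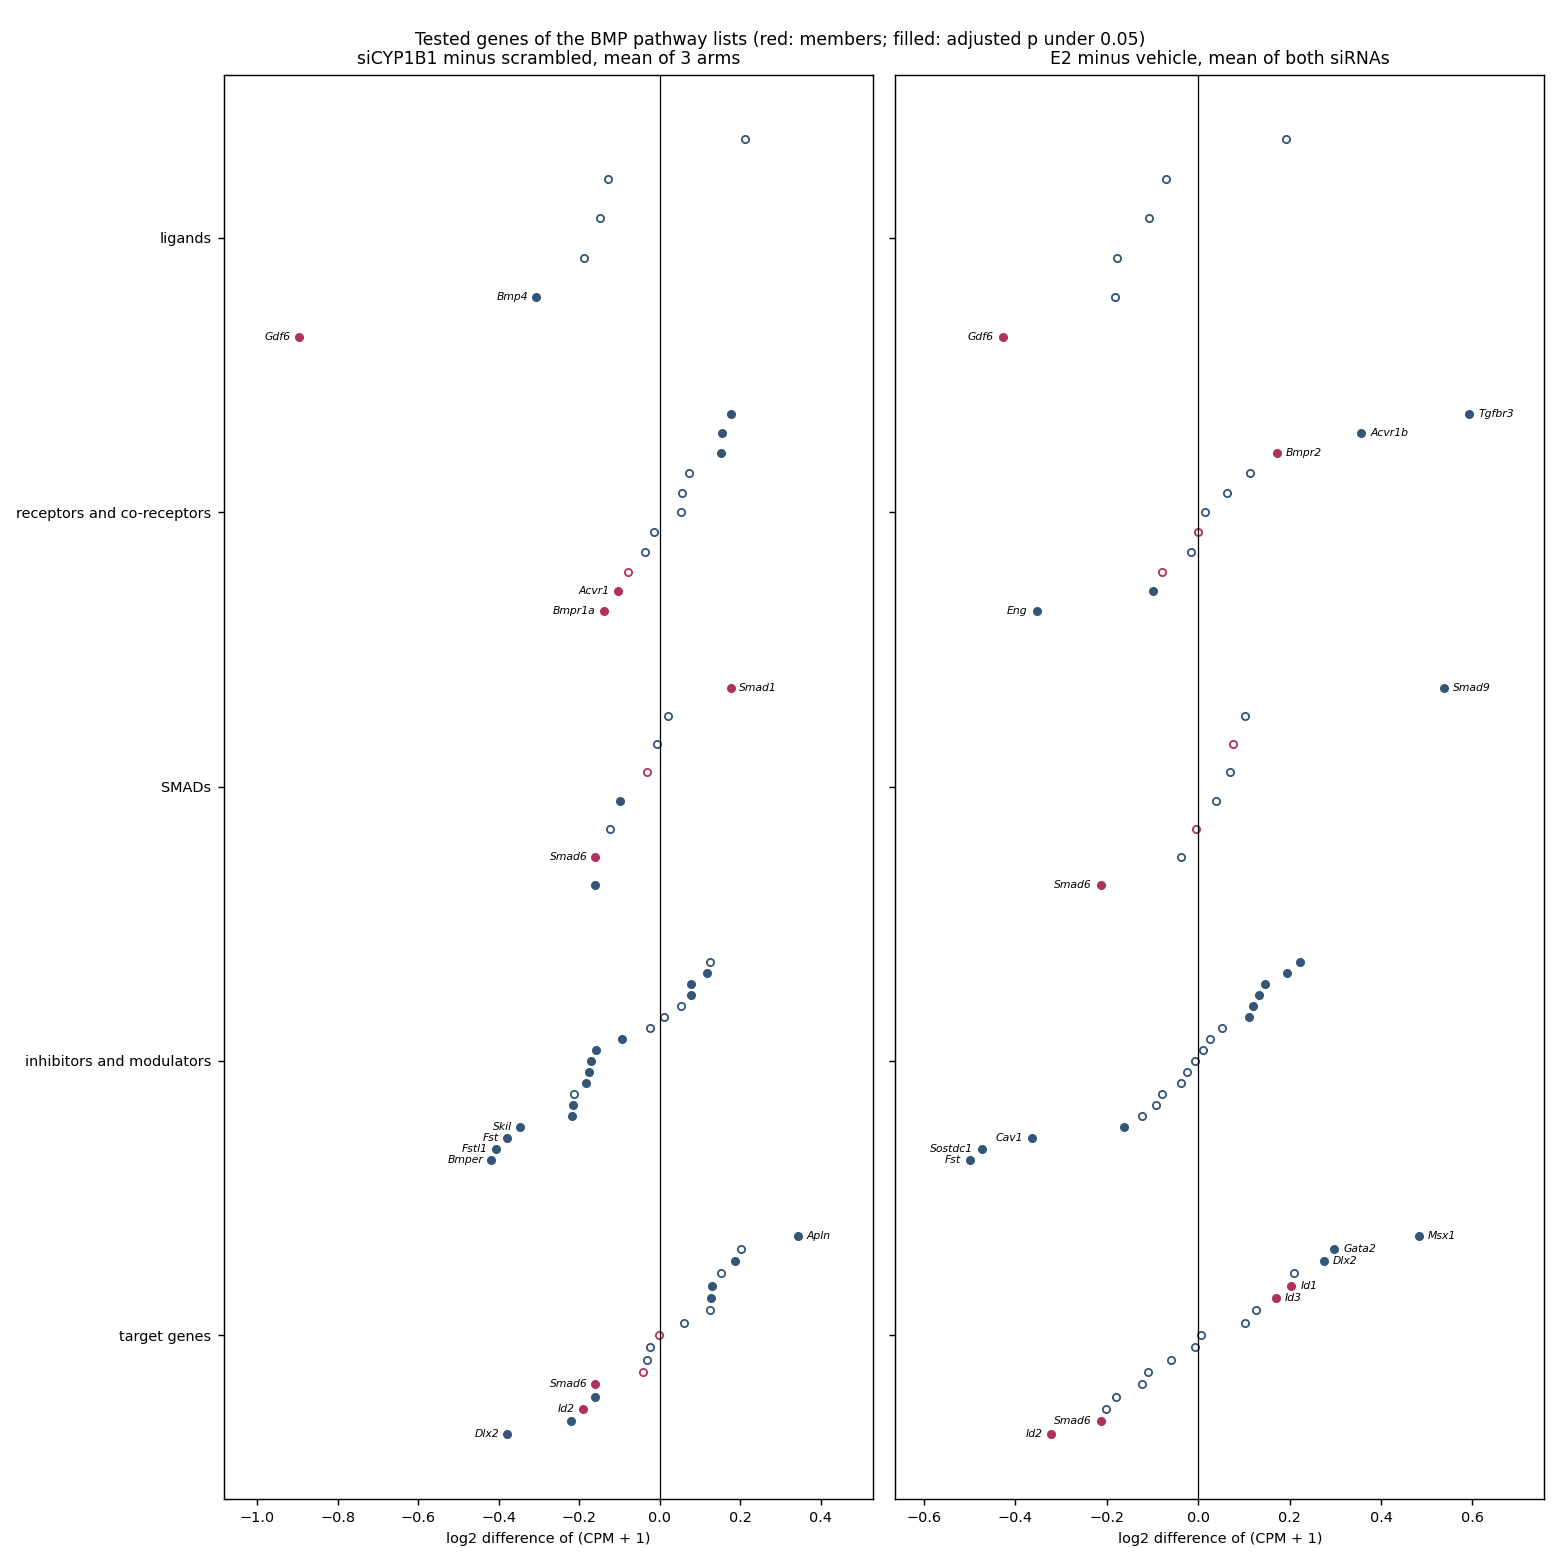
Log2 differences of (CPM + 1) for the tested genes of the 5 lists, siCYP1B1 minus scrambled over 3 arms at left and E2 minus vehicle over both siRNAs at right. Each point is a gene, red for the 10 members and filled where the adjusted p is under 0.05. Inhibitors and modulators lean to the left of 0 with siCYP1B1, and Tgfbr3 and Smad9 stand furthest right with E2.

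Across the 18 libraries, which share their groups, the genes whose log2 values ran most like Gdf6 were Timp3 (Pearson r 0.973, Spearman rho 0.953) and Unc5b (0.972, 0.963). For Bmpr1a they were Mpp5 (r 0.942) and Reep1 (0.921), for Acvr1 Zfp185 (0.787) and Ltbp4 (0.784), and for Bmpr2 Dmxl1 (0.947) and Myo5a (0.946). For Smad1 they were Ap1m1 (r 0.916) and Slc25a3 (0.906), and for Smad6 Lfng (0.910) and S1pr5 (0.891). For Id1 they were Chmp7 (r 0.867) and Abcd3 (0.858), and for Id2 Edn2 (0.888) and Hs3st1 (0.879). These likenesses are descriptions over 18 libraries of 6 groups.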

How the data were processed

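The authors deposited 1 table of CPM for 15288 genes and 18 libraries, with a constant of 1e-04 added to every value, which was subtracted. Per the submitters' processing notes, the names TopHat2, Partek and mm10 belong to the processing, with no role or order stated. Gene annotation, strandedness and any filters: not given in the sources used here. Steps in the low values gave the depth. Within a tolerance of 0.1 reads 93.6% to 94.8% of values were whole, too few for count tests. Log2(CPM + 1) was fitted with limma 3.58.1 in R 4.3.3 (trended eBayes, 1 coefficient per group, 18 libraries, mean of at least 1 CPM, 14 contrasts, threshold 0.05), a step tested on simulated data. Libraries are numbered within groups only to name them. Alternatives changed the pseudocount, filter, scaling, trend and samples fitted, or left out each library. Levels per kb used the longest GENCODE transcript with a RefSeq link. Positions are those of the deposited table. Other genes named are up to 4 per list with the largest called difference in a single comparison with vehicle or scrambled siRNA, listed genes of known weight, and the 2 most similar to each called member, of which those for Id3 are not reported here. The members, lists and rules were chosen with earlier results of these data known.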

Additional observations from a re-analysis of the deposited data

How the results depend on the processing

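Of 1070 member values under other settings, 1043 kept their side of the threshold, 16 lost a call and 11 gained one, and no called value changed sign. With 1 library left out 2450 of 2520 did, 52 lost a call and 18 gained one. Among values not called, 7 and 104 changed sign, which was set apart from reversals after the data were seen. Calls gained under a setting were those of Acvr1, Id2 and Smad6 with E2 and of Smad6 for 16aOHE against E2 under another scaling, of Id2 also without the trend, and of Bmpr2 and Id3 with E2 when only the 2 groups were fitted. The causes were not tested. The median of all genes moved by less than 0.1 on the log2 scale under every scaling.

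Fitting only the 2 groups compared gave 365 genes for 16aOHE against vehicle with siCYP1B1 and 1538 for siCYP1B1 in 16aOHE, 4 and 11 pathway genes there, and 1 member each for siCYP1B1 in 16aOHE and for 16aOHE against E2 with siCYP1B1. Without the filter the count for 16aOHE against E2 with siCYP1B1 was 1 too. Without the trend, 1 gene was called for the interaction of 16aOHE.

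Leaving out 1 library gave 0 to 15 genes for that interaction (15 without scrambled E2 2, 2 without siCYP1B1 E2 3, 1 without siCYP1B1 vehicle 3). For 16aOHE against vehicle it gave 248 to 493 genes with scrambled siRNA (248 without scrambled 16aOHE 1) and 306 to 755 with siCYP1B1 (306 without siCYP1B1 16aOHE 2). It gave 1446 to 2229 for 16aOHE against E2 with siCYP1B1 (lowest without siCYP1B1 16aOHE 2) and 1538 to 2399 for siCYP1B1 in 16aOHE (lowest without scrambled 16aOHE 1). Members called were 2 to 5 for E2 with scrambled siRNA, 1 to 3 for E2 with siCYP1B1, 0 to 1 for 16aOHE over both siRNAs and with siCYP1B1, 1 to 3 for 16aOHE against E2 with either siRNA, and 1 to 2 for siCYP1B1 in 16aOHE. No paired analysis was possible because the labels carry no replicate numbers. Counting error is largest for Id2, the member with the fewest reads.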
